A study of Mus musculus with 6 samples.

Results

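The genes described here take up iron, store it, export it, sense it and release it from heme. They were chosen by symbol as a list of 10 genes, Tfrc, Slc11a2, Steap3, Fth1, Ftl1, Ncoa4, Slc40a1, Aco1, Ireb2 and Hmox1, and all 10 were found among the 49315 mouse genes counted. RNA was sequenced from immortalized mouse keratinocytes (MK cells, epithelial cells of skin) of 2 lines, with 3 libraries each. The Control line, MK-546 (MK-/-), lacks the α3 integrin subunit, and the 3A line, MK-546-ha3A (MK-/-:ha3), is the same knockout background with human α3 put back. Both lines received no treatment and were grown on collagen-coated dishes at 33 °C with 8% CO2 to about 50 to 80% confluence. Each group is a single cell line, so restored α3 and the descent of the line cannot be told apart. The labels do not say that replicates were separate cultures, so the p-values speak for the spread among these libraries alone, which may be technical.

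Cells take up iron mainly as transferrin bound to the transferrin receptor. Inside the endosome a reductase converts it to ferrous iron, which a transporter moves to the cytosol, where it is used, stored in ferritin or exported by ferroportin. The iron regulatory proteins, encoded by Aco1 and Ireb2, bind RNA stem-loops called iron-responsive elements when iron is scarce. In the 5′ UTR such an element blocks translation of the mRNA without a direct need for a change in its level, whereas in the 3′ UTR of the transferrin receptor mRNA it protects the mRNA from decay. Proliferating keratinocytes need iron for DNA synthesis, and skin loses iron as cells are shed.

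The elements found in 4 of the 10 genes are shown because their place, in the 5′ or the 3′ UTR, sets whether translation or mRNA level is known to answer to iron. The UTRs of the GENCODE M21 transcripts (GRCm38, the assembly of mm10) were searched on the transcript strand for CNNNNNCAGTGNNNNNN, with the 5 bases before and the 5 bases after the CAGTGN loop able to pair. Each sequence is printed 5′ to 3′ with its flanks, and capitals mark the 6 bases of the loop.
Tfrc 3′ UTR, chr16:32631219-32631247, plus strand: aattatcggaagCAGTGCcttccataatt
Tfrc 3′ UTR, chr16:32631598-32631626, plus strand: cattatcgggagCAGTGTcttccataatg
Tfrc 3′ UTR, chr16:32631663-32631691, plus strand: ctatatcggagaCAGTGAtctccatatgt
Tfrc 3′ UTR, chr16:32631710-32631738, plus strand: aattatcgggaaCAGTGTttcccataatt
Fth1 5′ UTR, chr19:9982732-9982760, plus strand: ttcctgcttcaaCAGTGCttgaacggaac
Ftl1 5′ UTR, chr7:45459779-45459807, minus strand: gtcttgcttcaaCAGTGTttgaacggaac
Slc40a1 5′ UTR, chr1:45925465-45925493, minus strand: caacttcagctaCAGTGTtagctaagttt
The match was rare. It was found in the 5′ UTR of 28 of 20890 genes (0.134%) and in the 3′ UTR of 127 of 21004 genes (0.605%), and Tfrc was the 1 gene with 4 or more matches. Among the 2585 genes whose longest 3′ UTR was within 20% of that of Tfrc, 1.35% held a match. The corresponding shares for the 5′ UTR were 0.400% for genes with a UTR like that of Fth1, 0.135% for Ftl1 and 0.229% for Slc40a1. The other 6 genes of the list, Slc11a2 among them, held no match to these letters. An element of another form would be missed, so the lack of a match does not show that a gene has no element. A match or its lack is a description of the sequence only.

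Total counts per library ranged from 25634204 to 36245240, and 13704 genes passed the low-count filter, all 10 iron and heme genes among them. The libraries were uneven in a way the groups do not explain. Across genes, log2 CPM of Control 2 and Control 3 correlated at 0.988. Control 1 correlated with them at 0.957 and 0.953, and with 3A 1, 2 and 3 at 0.946, 0.955 and 0.952. RNA of genes on the mitochondrial chromosome took 4.19% and 4.73% of the counts in Control 2 and Control 3. It took 1.17% in Control 1 and 1.24% to 1.59% in 3A, and its part in the results was not tested. Fold changes of the 10 genes are therefore given with all 6 libraries and without Control 1. Keratinocyte markers were present in every library, with 9 markers summing to at least 6792 CPM, although 7 of the 9 had a negative log2 fold change and 3 were called lower in 3A (adjusted p under 0.05 by edgeR, against 7.39% of all tested genes). Erythroid markers summed to at most 0.478 CPM over 8 genes. The 8 macrophage and immune markers summed to 14.0 to 23.0 CPM in Control and 11.2 to 14.6 CPM in 3A. Most of this was Cd68, at 16.7 ± 4.47 CPM in Control and 10.9 ± 1.30 CPM in 3A, and Csf1r, at 2.97 ± 0.756 and 1.68 ± 0.508 CPM (SD, n = 3). In the same list Adgre1, Cd163 and Spic had 0 counts in all 6 libraries, which allows a level of up to 0.0156 CPM. In such bulk samples, fewer cells expressing a gene and less RNA per cell cannot be told apart.

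Of the 10 genes, 2 were higher in 3A and 0 lower by edgeR's quasi-likelihood test at an adjusted p under 0.05, against 7.52% of all tested genes called higher and 7.39% called lower. The 2 were Slc40a1, which encodes the iron exporter ferroportin, and Tfrc, which encodes the transferrin receptor. At an unadjusted p under 0.05 there were 5 of 10, against 34% of all tested genes. Groups were fully separated for 4 of the 10 genes, against 36.1% of all tested genes. In 3A, Tfrc, Slc40a1 and Aco1 lay above Control (18.6% of all tested genes did) and Hmox1 below it (17.6%). The median log2 fold change of the list was 0.49, beside -0.02 over all tested genes. Without Control 1, 7 were higher and 2 lower, but 26.2% of all tested genes were then called higher and 25.8% lower, so that this count also rests on a background of 52%.

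**Figure D1:**
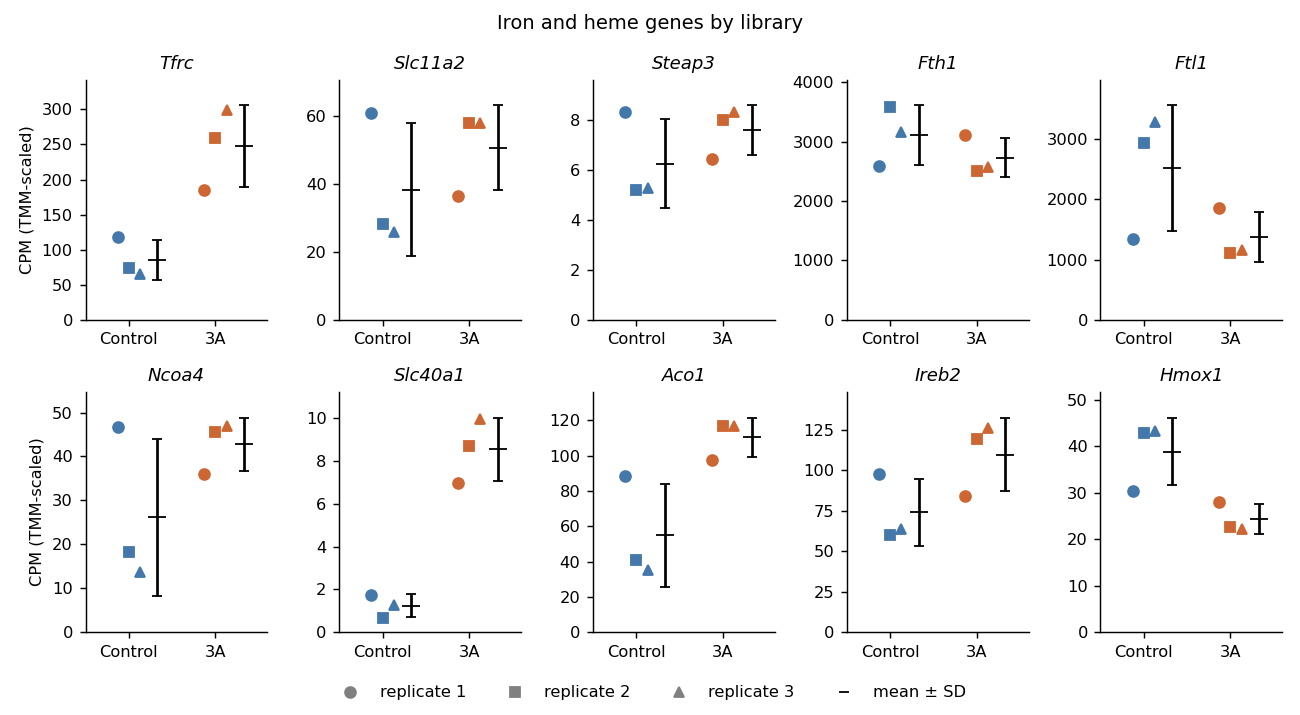
Level of each of the 10 genes in each library, in CPM with TMM scaling on a linear axis from 0; circles, squares and triangles are replicates 1, 2 and 3, and black bars the mean ± SD of 3 libraries. Control 1 (blue circle) lies nearer to 3A than Control 2 and Control 3 do for all 10 genes.

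Uptake begins with Tfrc (chromosome 16, 32608920 to 32632794), the receptor that carries transferrin-bound iron into the cell. It had 118, 73.2 and 65.3 CPM in Control libraries 1, 2 and 3 and 185, 259 and 299 CPM in 3A libraries 1, 2 and 3. Every 3A library exceeded every Control library, and Control 1 was the highest Control library. The mean rose from 85.4 ± 28.3 to 248 ± 58.0 CPM (SD, n = 3), a 2.90-fold difference (log2 fold change 1.53, SE 0.28, adjusted p = 0.0141 by edgeR). The call was lost without Control 2 (adjusted p = 0.0639 by edgeR), 3A 2 (0.0637) or 3A 3 (0.0702), with log2 fold changes of 1.43, 1.51 and 1.38. Without Control 1 the log2 fold change was 1.85 (adjusted p = 0.000741 by edgeR).

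Slc11a2 encodes DMT1, the transporter that moves ferrous iron out of the endosome, and Steap3 an endosomal reductase that supplies it. Slc11a2 had 60.8, 28.2 and 25.8 CPM in Control libraries 1, 2 and 3 and 36.3, 57.9 and 57.8 CPM in 3A libraries 1, 2 and 3. Control 1 was the highest of the 6 libraries and 3A 1 was lower than it, so the groups overlapped. The log2 fold change of 0.40 did not pass (95% interval -0.45 to 1.26, adjusted p = 0.452 by edgeR). Steap3 had 8.34, 5.19 and 5.26 CPM in the Control libraries and 6.45, 7.99 and 8.33 CPM in the 3A libraries. Its groups overlapped in the same way (log2 fold change 0.27, 95% interval -0.31 to 0.86, adjusted p = 0.451 by edgeR). Without Control 1 both passed, in a fit that called 52% of all tested genes. The log2 fold changes were then 0.92 for Slc11a2 (adjusted p = 0.0104 by edgeR) and 0.55 for Steap3 (adjusted p = 0.0436 by edgeR). Leaving out any other library, neither passed (adjusted p from 0.313 to 0.796 by edgeR).

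Storage genes did not pass the test with 6 libraries. Fth1 (chromosome 19, 9980598 to 9985098) encodes the ferritin heavy chain, which oxidizes iron for storage. It had 2590, 3581 and 3169 CPM in Control libraries 1, 2 and 3 and 3106, 2505 and 2572 CPM in 3A libraries 1, 2 and 3. The groups overlapped and the log2 fold change was -0.19 (95% interval -0.64 to 0.26, adjusted p = 0.501 by edgeR). Without Control 1 it was -0.30 and still did not pass (adjusted p = 0.112 by edgeR). These values cover mRNA only, and ferritin protein was not measured.

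Ftl1 (chromosome 7, 45457944 to 45459884) encodes the ferritin light chain, which supports formation of the iron core. It was far more uneven, with 1336, 2932 and 3287 CPM in Control libraries 1, 2 and 3 and 1852, 1109 and 1152 CPM in 3A libraries 1, 2 and 3. Control 2 and Control 3, the libraries with the highest mitochondrial share, were the highest, while Control 1 fell within the range of 3A. The log2 fold change was -0.88 (SE 0.37, adjusted p = 0.145 by edgeR), and -1.17 without Control 1 (adjusted p = 0.00429 by edgeR). Counts on both ferritin genes are uncertain because near-identical copies exist in the genome. The processed copy Ftl1-ps1 had 6.15, 14.4 and 17.0 CPM in the Control libraries and 9.74, 4.34 and 4.40 CPM in the 3A libraries. Ranked by level, the 6 libraries stood in the same order for this copy as for Ftl1.

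Ncoa4 encodes the receptor that takes ferritin to the lysosome for iron release. It had 46.6, 18.4 and 13.6 CPM in Control libraries 1, 2 and 3 and 35.9, 45.6 and 46.9 CPM in 3A libraries 1, 2 and 3. Control 1 was 2.92 times the mean of Control 2 and Control 3, the largest such ratio among the 10 genes, and lay within the range of 3A. The log2 fold change of 0.71 did not pass (95% interval -0.32 to 1.73, adjusted p = 0.283 by edgeR). Without Control 1 it was 1.43 and passed (adjusted p = 0.00129 by edgeR).

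Export was the step with the largest fold change of the list. Slc40a1 (chromosome 1, 45908068 to 45926523) had 1.74, 0.684 and 1.27 CPM in Control libraries 1, 2 and 3 and 6.99, 8.69 and 9.94 CPM in 3A libraries 1, 2 and 3. These levels rest on 55, 20 and 30 reads in Control and 244, 326 and 357 reads in 3A, and the groups were separated by the gap between 1.74 and 6.99 CPM. The mean rose from 1.23 ± 0.531 to 8.54 ± 1.48 CPM (SD, n = 3), a 6.89-fold difference (log2 fold change 2.79, SE 0.36, adjusted p = 0.00377 by edgeR). It passed in each of the 6 fits that left out a library, with log2 fold changes from 2.48 to 3.15, the latter without Control 1.

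The sensors are the genes of the iron regulatory proteins. Aco1, which encodes the protein that serves either as the cytosolic aconitase or as iron regulatory protein 1, had 88.4, 41.1 and 35.0 CPM in Control 1, 2 and 3. In 3A 1, 2 and 3 it had 97.8, 117 and 117 CPM, so that every library of 3A was above every Control library. The mean difference was 2.01-fold (log2 fold change 1.01, SE 0.35) and did not pass (adjusted p = 0.0924 by edgeR). DESeq2 called it (adjusted p = 0.0278), in a fit that called 26% of all tested genes. So did edgeR without Control 1 (log2 fold change 1.55, adjusted p = 0.000410), in a fit that called 52%. Leaving out any other library gave no call for Aco1 (adjusted p from 0.131 to 0.261 by edgeR).

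Ireb2, the gene of iron regulatory protein 2, which is degraded when iron is plentiful, had 98.0, 60.3 and 63.9 CPM in Control 1, 2 and 3. It had 83.9, 119 and 126 CPM in 3A libraries 1, 2 and 3. The groups overlapped through Control 1 and 3A 1, and the log2 fold change of 0.57 did not pass (95% interval -0.02 to 1.15, adjusted p = 0.155 by edgeR). Without Control 1 it was 0.83 (adjusted p = 0.00879 by edgeR).

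Hmox1 (chromosome 8, 75093621 to 75100589) encodes heme oxygenase 1, the inducible enzyme that opens the heme ring and frees its iron. It had 30.5, 42.9 and 43.2 CPM in Control libraries 1, 2 and 3 and 28.0, 22.6 and 22.3 CPM in 3A libraries 1, 2 and 3. Every library of 3A lay below every Control library, with Control 1 close to 3A 1. The mean was 38.8 ± 7.26 CPM in the Control libraries and 24.3 ± 3.20 CPM in the 3A libraries (SD, n = 3; log2 fold change -0.68, SE 0.19), just short of the threshold (adjusted p = 0.0576 by edgeR). DESeq2 called it lower (adjusted p = 0.0157), in a fit that called 26% of all tested genes. So did edgeR without Control 1 (log2 fold change -0.82, adjusted p = 0.00359), in a fit that called 52%. Leaving out any other library gave no call for Hmox1 (adjusted p from 0.0722 to 0.224 by edgeR). Hmox2, the constitutive heme oxygenase gene, had 62.4 ± 3.18 CPM in the Control libraries and 79.2 ± 5.72 CPM in the 3A libraries and was not called (log2 fold change 0.34, adjusted p = 0.124 by edgeR).

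**Figure D2:**
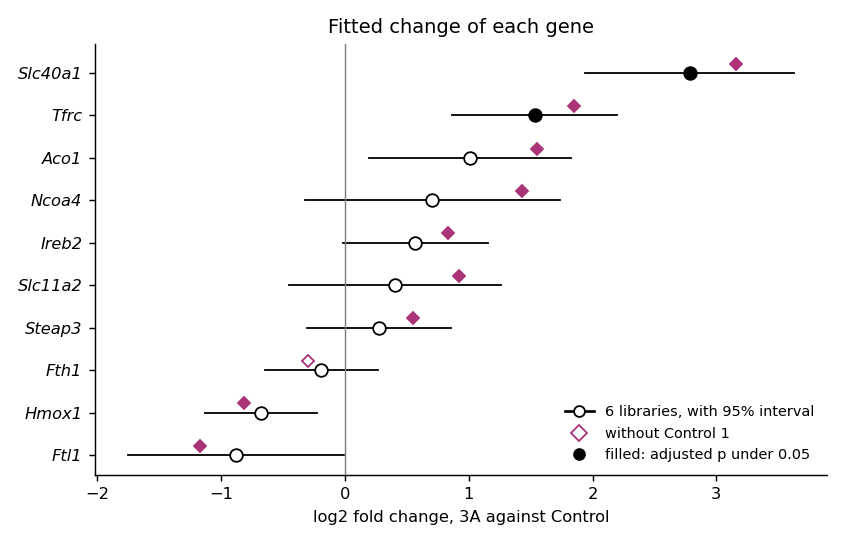
Log2 fold change of 3A against Control for the 10 genes: circles are the edgeR estimate from 6 libraries with its 95% interval, diamonds the estimate without Control 1, and filled symbols have an adjusted p under 0.05. Slc40a1 (2.79) and Tfrc (1.53) are filled with 6 libraries, in a fit that called 14.9% of all tested genes. Of the 10 diamonds 9 are filled, Fth1 being the exception, in a fit that called 52% of all tested genes.

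Control 1 set much of the spread. For all 10 genes it was the Control library nearest to the 3A mean on the log2 scale, so leaving it out widened each difference. Leaving out any other library gave calls for 1 or 2 of the 10 genes. The level of Control 1 was 2.25 and 2.32 times the mean of the other Control libraries for Slc11a2 and Aco1. For Ftl1 it was 0.430 times that mean. Within 3A, 3A 1 was the library nearest to the Control mean for all 10 genes. Across genes, its log2 CPM correlated with 3A 2 and 3A 3 at 0.985 and 0.982, while 3A 2 and 3A 3 correlated at 0.994. The highest 3A value was at most 1.67 times the lowest for any of the 10 genes. In Control this ratio reached 3.43, for Ncoa4.

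Levels can be compared between genes only per length, here as CPM per kilobase of annotated exon (RPKM). The ferritin genes were far above the rest, at 1879 ± 776 RPKM for Ftl1 and 897 ± 144 RPKM for Fth1 in Control and 1023 ± 311 and 786 ± 94.9 RPKM in 3A. The 2 ferritin genes overlapped in both groups, and their order depends on the exonic lengths used, 3469 bases for Fth1 and 1340 bases for Ftl1 over all annotated transcripts. In Control the next genes were Hmox1 (22.2), Tfrc (13.8), Aco1 (12.2), Ireb2 (7.81), Slc11a2 (6.02) and Ncoa4 (2.80 RPKM), and each overlapped its neighbour in this order. Steap3 (1.10) and Slc40a1 (0.137 RPKM) came last, and the range of Slc40a1 lay below that of Steap3. In 3A, Tfrc came next after the ferritin genes at 40.0 RPKM, above Aco1 (24.6) and Hmox1 (13.9) without overlap. Hmox1, Ireb2 (11.6) and Slc11a2 (7.97 RPKM) overlapped in turn. Slc40a1 was again the lowest, at 0.949 RPKM, below Steap3 (1.33 RPKM).

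Ratios between genes of the same library do not depend on scaling, and 3 were tested with an exact two-sided permutation test, whose smallest possible p with 3 libraries a group is 0.1. The ratio of Tfrc to Fth1, uptake against storage mRNA, was 0.0255, 0.0115 and 0.0116 in Control libraries 1, 2 and 3 and 0.0334, 0.0580 and 0.0652 in 3A libraries 1, 2 and 3. Every 3A library exceeded every Control library, and the group means differed by 1.74 on the log2 scale (exact permutation p = 0.1, the smallest it can give, and 0.15 adjusted over the 3 ratios). The ratio of Ireb2 to Aco1 was 0.526, 0.696 and 0.865 in the Control libraries and 0.407, 0.485 and 0.512 in the 3A libraries, with no overlap (log2 difference -0.55, exact permutation p = 0.1, adjusted 0.15). The ratio of Fth1 to Ftl1 was 0.749, 0.472 and 0.372 in the Control libraries and 0.648, 0.873 and 0.862 in the 3A libraries, with Control 1 above 3A 1 (log2 difference 0.63, exact permutation p = 0.2, adjusted 0.2). Without Control 1 the log2 differences were 2.12 for Tfrc to Fth1, -0.74 for Ireb2 to Aco1 and 0.91 for Fth1 to Ftl1.

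**Figure D3:**
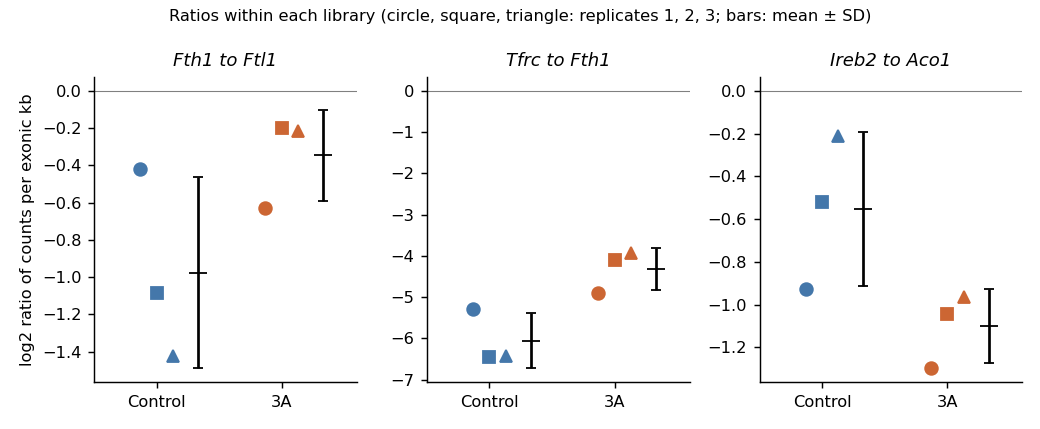
Log2 ratio of counts per exonic kilobase for 3 pairs of genes in each library, with black bars for the mean ± SD of 3 libraries; circles, squares and triangles are replicates 1, 2 and 3. The groups do not overlap for Tfrc to Fth1 and Ireb2 to Aco1, while Control 1 lies within the range of 3A for Fth1 to Ftl1.

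The rest of iron and heme handling was read from a wider list of 100 symbols in 8 groups, of which 96 were in the table and 79 were tested. Of these, 4 were higher and 5 lower in 3A (11.4% of the list, against 14.9% of all tested genes). The median log2 fold change of the 79 was -0.01, and 0.07 with library size scaling. When Control 1 was left out there were 21 higher and 22 lower of 80, against 52% of all genes tested in that fit. By DESeq2 there were 11 and 14 of 79, against 26% of all tested genes called by DESeq2.

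Among 8 tested genes of iron uptake and reduction, none was called by edgeR (2 had an unadjusted p under 0.05, and DESeq2 called 1 higher and 1 lower). Slc39a14, which encodes the ZIP14 transporter for iron not bound to transferrin, had 20.7, 11.1 and 9.47 CPM in the Control libraries and 20.7, 31.7 and 35.6 CPM in the 3A libraries, with 3A 1 just above Control 1 (log2 fold change 1.09, adjusted p = 0.0730 by edgeR). Its paralog Slc39a8 had 0.0634 CPM in Control 1 and 0 counts in the other libraries. The genes of the related reductases, Steap1 and Steap2, did not pass, with log2 fold changes of 0.10 and 0.19 (adjusted p = 0.696 by edgeR and 0.382). Steap4 stayed below 1 CPM in every library. Trf, the transferrin gene, had at most 0.0634 CPM.

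Among 5 tested storage, chaperone and export genes, 1 rose by edgeR, against 7.52% of all tested genes called higher. The other 4 had a negative log2 fold change, and the median of the 5 was -0.38. DESeq2 called 1 higher and 2 lower. The riser by edgeR was Cp, which encodes ceruloplasmin, a ferroxidase that works beside ferroportin. It had 5.83, 4.75 and 4.80 CPM in the Control libraries and 12.1, 11.9 and 20.8 CPM in the 3A libraries, with no overlap (log2 fold change 1.54, SE 0.27, adjusted p = 0.0110 by edgeR). Without Control 2 it just missed the threshold (adjusted p = 0.0539 by edgeR).

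In iron sensing and systemic regulation, 1 of 6 tested genes fell, against 7.39% of all tested genes called lower. Bmp6, the ligand that drives hepcidin expression in the liver, had 5.04, 2.87 and 3.27 CPM in the Control libraries and 0.0287, 0 and 0.0278 CPM in the 3A libraries. This was 320 reads in Control against 2 in 3A, a ratio of 205 (95% exact interval 56.4 to 1704, which covers counting error only; adjusted p = 0.000638 by edgeR). Hamp, the hepcidin gene, had at most 0.0425 CPM. Fbxl5, the iron-sensing ubiquitin ligase subunit that targets iron regulatory protein 2, had 85.6 ± 13.1 CPM in the Control libraries and 128 ± 26.6 CPM in the 3A libraries (SD, n = 3) and was not called (log2 fold change 0.58, adjusted p = 0.0995 by edgeR).

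Genes of mitochondrial iron and iron-sulfur cluster assembly gave no call by edgeR among 23 tested, and their median log2 fold change was -0.27 (6 had an unadjusted p under 0.05, and DESeq2 called 2 higher and 4 lower). When Control 1 was left out, 7 of them were higher and 11 lower, in a fit that called 52% of all tested genes. Of 11 tested genes of the cytosolic assembly pathway, 1 fell, against 7.39% of all tested genes called lower. This was Ciao2b, a subunit of the complex that targets clusters to proteins. It had 40.5, 80.3 and 82.4 CPM in the Control libraries and 36.4, 27.0 and 24.4 CPM in the 3A libraries (log2 fold change -1.21, SE 0.30, adjusted p = 0.0391 by edgeR). It was no longer called when any library other than Control 1 was left out (adjusted p from 0.0607 to 0.161 by edgeR).

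Heme synthesis gave no call by edgeR among 9 tested genes (2 had an unadjusted p under 0.05, and DESeq2 called 1 higher). Alas1, which encodes the rate-limiting first enzyme in non-erythroid cells, had 57.5, 61.9 and 51.3 CPM in the Control libraries and 51.3, 49.1 and 44.1 CPM in the 3A libraries (log2 fold change -0.24, adjusted p = 0.276 by edgeR). Fech, the gene of the enzyme that inserts iron into the ring, had a log2 fold change of 0.04 (adjusted p = 0.922 by edgeR).

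Heme breakdown, transport and sensing held 1 riser and 3 fallers among 12 tested genes, 33.3% of the group against 14.9% of all tested genes. Pgrmc1, which encodes a heme-binding membrane protein, had 155, 159 and 146 CPM in the Control libraries and 282, 295 and 319 CPM in the 3A libraries. Control 1 was not set apart for this gene, and its log2 fold change of 0.96 (SE 0.14, adjusted p = 0.00503 by edgeR) passed in each of the 6 fits that left out a library. Slc46a1, which encodes a folate transporter first described as a heme carrier, had 37.2, 37.6 and 31.3 CPM in the Control libraries and 19.4, 18.2 and 19.6 CPM in the 3A libraries (log2 fold change -0.89, SE 0.15, adjusted p = 0.00868 by edgeR). Its call was lost without 3A 2 (adjusted p = 0.0740 by edgeR) or 3A 3 (0.0542).

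Nr1d1, the gene of the heme-binding nuclear receptor REV-ERBα, had 33.4, 43.5 and 48.5 CPM in the Control libraries and 17.8, 12.8 and 9.91 CPM in the 3A libraries (log2 fold change -1.63, SE 0.26, adjusted p = 0.00773 by edgeR), and it just missed the threshold without 3A 2 (0.0502). Blvrb, the gene of a biliverdin reductase, had 38.8, 70.7 and 67.8 CPM in the Control libraries. It had 34.2, 25.2 and 25.1 CPM in the 3A libraries (log2 fold change -1.07, SE 0.26, adjusted p = 0.0378 by edgeR). Like Hmox1 it had Control 1 as the lowest Control library, and it was not called without any library other than Control 1 (adjusted p from 0.0578 to 0.163 by edgeR). Blvra, the other biliverdin reductase gene of the list, had a log2 fold change of -0.01 (adjusted p = 0.970 by edgeR). Bach1, the gene of the heme-sensitive repressor of Hmox1, had a log2 fold change of 0.02 (adjusted p = 0.951 by edgeR).

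Among 5 further transcripts listed for reported iron-responsive elements, 2 rose, against 7.52% of all tested genes called higher. None of the 5 held the letters searched above in its UTRs. The 2 risers were Sdhd, a subunit gene of succinate dehydrogenase, from 119 ± 9.24 CPM to 204 ± 27.6 CPM (log2 fold change 0.78, adjusted p = 0.0201 by edgeR), and Hao1, a glycolate oxidase gene, from 0.757 ± 0.123 CPM to 1.68 ± 0.273 CPM (n = 3, SD; log2 fold change 1.15, adjusted p = 0.0384 by edgeR). Without Control 2, Control 3, 3A 2 or 3A 3 neither was called (adjusted p from 0.0815 to 0.166 by edgeR), and Hao1 was also lost without 3A 1 (0.0644).

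**Figure D4:**
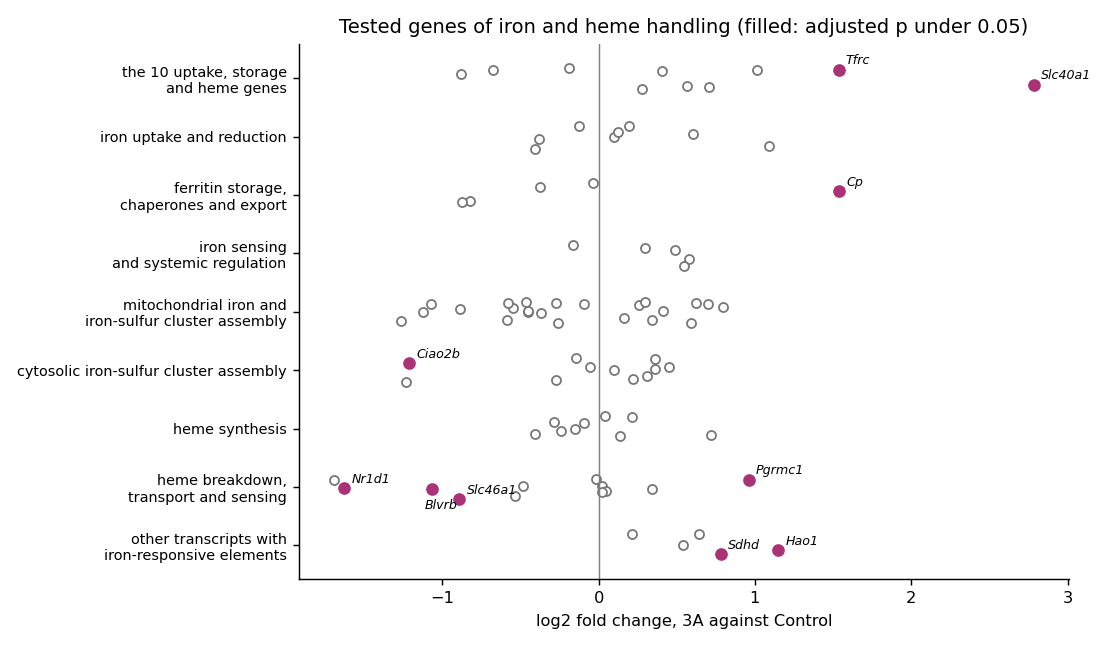
Log2 fold change of 3A against Control for each tested gene, in rows for the 10 genes and for 8 further groups; filled points have an edgeR adjusted p under 0.05 and are named, with vertical scatter only for legibility. Bmp6 is not drawn because it had 2 reads in 3A; the called genes lie on both sides of 0.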

How the data were processed

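The authors deposited whole-number read counts for mouse Ensembl gene IDs in 6 libraries, without normalization. The submitters' processing notes name the builds hg38, GRCh38 and mm10 and the tools limma, edgeR, featureCounts and Trim Galore. For the aligner, the annotation release and the use of strand, nothing is given in the sources used here. Symbols and lengths came from GENCODE M21, which matched 49056 of 49315 IDs.

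The test was the quasi-likelihood test of edgeR 4.0.16 (R 4.3.3), with TMM scaling, the filterByExpr filter and group as sole term, with Benjamini-Hochberg adjustment over 13704 genes and a threshold of 0.05. CPM use TMM-scaled library sizes. Intervals are 95%, and 0 counts are bounded by 3 counts. The 10 genes were given, and members and lists were chosen with earlier results of these data known. Named were all 10, every called gene of the wider list (2 of its genes are left out of it and not reported here) and partners of a member. No 2 replicates agreed within sampling noise (chi-square per degree of freedom 14.5 or more). On simulated counts for 3A against Control (13477 genes, 200 changed), the share found was 26% for 2-fold and 93% for 4-fold changes, with 11 false calls among 130. These shares need not hold for the data, where 2044 of 13704 genes were called. Alternatives were RLE, library size and upper quartile scaling, other filters, DESeq2 1.42.0, limma-voom 3.58.1, a replicate block and each library left out.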

Additional observations from a re-analysis of the deposited data

How the results depend on the processing

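No fold change of the 10 genes and none of the 3 ratios changed sign under the alternatives run. Leaving out a library in turn gave log2 fold changes from 1.37 to 1.85 for Tfrc, 0.77 to 1.55 for Aco1, 0.43 to 0.83 for Ireb2, 0.40 to 1.43 for Ncoa4, 0.19 to 0.92 for Slc11a2 and 0.15 to 0.55 for Steap3. The ranges were -1.17 to -0.64 for Ftl1 and -0.82 to -0.59 for Hmox1. Across the fits that left out a library, the number of genes called ranged from 664 to 7441 over all tested genes. It ranged from 1 to 9 of the 10 genes and 3 to 43 of the wider list, and each count was highest without Control 1. DESeq2 called 3565 genes in all, 4 of the 10 and 25 of the wider list, adding Aco1 (log2 fold change 1.01) and Hmox1 (-0.68); the cause was not tested. Deviations of same-numbered libraries from their group mean correlated at -0.66, -0.42 and -0.37, and no library correlated best with its own number. Replicate 1 stood apart in both groups, so these values do not settle whether the replicate numbers pair the libraries. With the replicate number as a block, 288 genes were called in all, 1 of the 10 (Slc40a1) and 1 of the wider list, and Tfrc (1.56) no longer passed (adjusted p = 0.114 by edgeR). Slc40a1 passed under all 14 alternatives (adjusted p from 2.13e-12 to 0.0491). At this depth Slc40a1 rests on 20 to 55 reads in each Control library, the fewest of the 10, so counting error is largest for its Control level.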

Other observations

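The genes whose log2 CPM followed that of Tfrc most closely over the 6 libraries, among 9032 others with a mean of at least 10 CPM, were Cep19, Dhrs7b, Ttc4, Ddr2 and Col4a1 (Pearson r from 0.998 to 0.999). With 6 libraries in 2 groups an r over 0.9 was common, found for 1293 of the 9032 genes. The points share their libraries and depth, and the correlations are descriptions. Ddr2, a collagen receptor gene, had 17.2 CPM in the Control libraries and 66.0 CPM in the 3A libraries, and Col4a1, a basement membrane collagen chain gene, 34.7 and 118 CPM. Cep19 had 14.6 and 29.0 CPM, Dhrs7b 46.2 and 77.4 CPM, and Ttc4 32.1 and 42.9 CPM. None of the 5 belongs to the iron and heme lists.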
